A study of Caenorhabditis elegans with 4 samples.

Results

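The regions described are the peaks called for UNC-62 ChIP in the outer parts of 4 autosomes of Caenorhabditis elegans. Each chromosome from II to V was divided by a central window covering the middle 33.4% of its length, from 5.09 to 10.19 Mb on II, 4.59 to 9.19 Mb on III, 5.83 to 11.66 Mb on IV and 6.97 to 13.95 Mb on V (WormBase WS220). A peak whose midpoint lay below the window was placed in the left arm and one above it in the right arm. In the list deposited for the whole series, 218 of 900 peaks lay in the 8 arms, 222 in the 4 centres and 184 on X. The rest lay outside II to V and X. The lists of the ChIP replicates held 35 arm peaks of 113 in replicate 1 and 55 of 174 in replicate 2. Position alone chose the regions, so peak strength, width and recovery in the replicates are separate measures of them.

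UNC-62 is a homeodomain transcription factor of the Meis and Homothorax family, which binds DNA together with PBC and Hox proteins and has roles in patterning, vulva development and, in the adult intestine, yolk gene expression. Autosomes of this nematode have a central cluster dense in conserved and essential genes. Their arms recombine more, carry more repeats and silenced chromatin and attach more often to the nuclear envelope, and they hold many members of recently expanded gene families. The arm and centre domains were mapped genetically, and the windows used here only approximate them.

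The worms were hermaphrodites of strain OP600 at the L4 stage, the last larval stage, grown at 20 degrees Celsius on E. coli. Every sample had the genotype unc119(ed3) with the integrated transgene wgIs600, which carries unc-62 fused to TY1, EGFP and FLAG tags together with unc119 and was brought in by bombardment, so ChIP and input share the transgene and its extra copies. From that 1 strain came 2 samples precipitated with anti-GFP antibodies and 2 of input, the total chromatin before precipitation. The labels do not say whether the replicates were separate cultures. The files give a position and a q-value for each peak and no reads, so the depth behind a peak is unknown, and a lower q can reflect more reads as well as more binding. No WS220 sequence or gene annotation was used here, and regions are named by position.

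Arms held fewer UNC-62 peaks per megabase than centres. In the series list the density was 4.85 peaks per Mb over 44.96 Mb of arm and 9.86 per Mb over 22.51 Mb of centre, a ratio of 0.492. The 218 arm peaks were 49.5% of the 440 peaks on II to V (95% exact interval 44.8 to 54.3%), against 66.6% of the length (exact binomial p = 1.82e-13, two-sided). Replicate 1 had 0.778 peaks per Mb in the arms and 1.42 in the centres, an arm share of 52.2% (39.7 to 64.6%, exact binomial p = 0.0189). Replicate 2 had 1.22 and 2.04 per Mb, an arm share of 54.5% (44.2 to 64.4%, exact binomial p = 0.0112). The direction was the same in each of the 3 lists, with the density ratio at 0.548 and 0.599 in the replicates. The arm peaks of the series list are not independent of those in the replicate lists. All 35 arm peaks of replicate 1 and 54 of the 55 of replicate 2 overlap series peaks. These tests count peaks as independent, although many lie close together, and they describe these libraries only.

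The arms were not alike. In the series list the right arm of II held 37 peaks, the left arm of V 33, the left arm of III 31, the right arm of IV 30, the right arm of III 28, the left arm of IV 26, the right arm of V 18 and the left arm of II 15. Per megabase the order ran from 7.27 on the right of II, through 6.75 and 6.10 on III, 5.15 on the right of IV, 4.73 on the left of V and 4.46 on the left of IV, to 2.95 on the left of II and 2.58 on the right of V. The highest density was 2.81 times the lowest. Against its share of the arm length, the right arm of V alone passed the test, at 0.533 of the expected number (exact binomial test adjusted over the 8 arms, p = 0.0155). Neither arm of II passed, at 7.27 per Mb on the right against 4.85 over all arms (exact binomial adjusted p = 0.0534) and a ratio of 0.608 on the left (exact binomial adjusted p = 0.110).

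**Figure D1:**
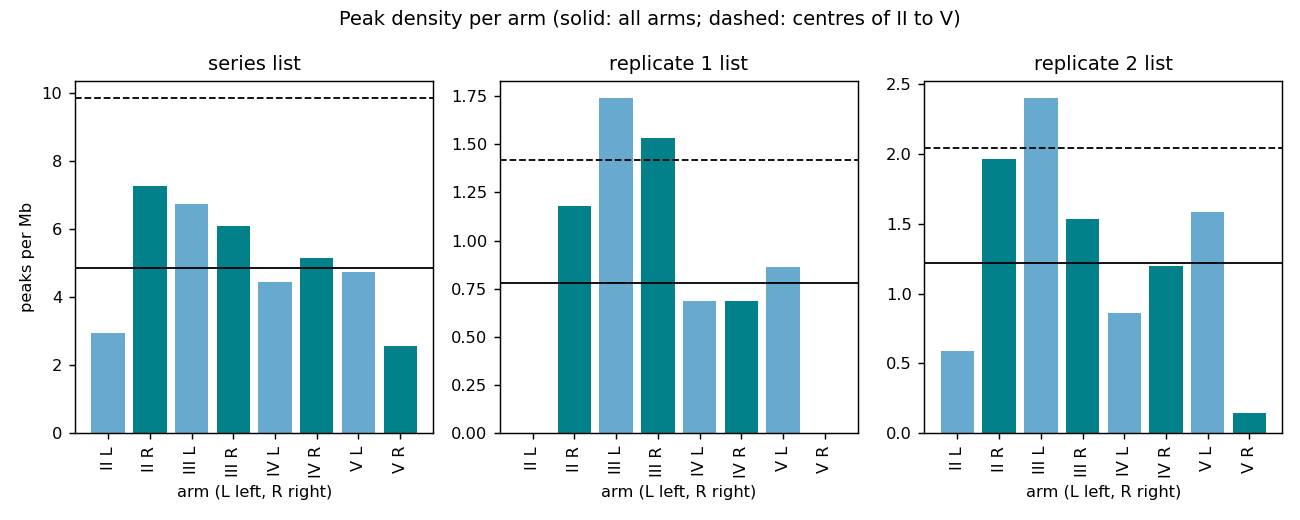
UNC-62 peaks per Mb in each arm of chromosomes II to V, in the series list and in each ChIP replicate list; each bar is 1 arm, the solid line is the density over all arms and the dashed line that over the centres. Each panel has its own scale. The right arm of V was the lowest bar in the series list at 2.58 peaks per Mb, was empty in replicate 1 together with the left arm of II, and held 1 peak in replicate 2.

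The right arm of V was sparse in all lists, although the lists share peaks. Replicate 1 had 0 of its 35 arm peaks there, and replicate 2 had 1 of 55 (0.143 per Mb, 0.117 of the expected number). Both shortfalls passed the exact binomial test (adjusted p = 0.0340 and 0.0176). The left arm of V, of equal length, held 6 and 11 peaks in the replicates. Chromosome II was lopsided the other way, with 15 left and 37 right peaks in the series list (28.8% left, exact binomial p adjusted over 4 chromosomes = 0.0127), 0 and 6 in replicate 1 and 3 and 10 in replicate 2 (exact binomial adjusted p = 0.0625 and 0.185). On V the left arm had 64.7% of the series arm peaks (exact binomial adjusted p = 0.0977), 6 of 6 in replicate 1 (exact binomial adjusted p = 0.0625) and 11 of 12 in replicate 2 (exact binomial adjusted p = 0.0254). With 6 peaks, 0.0312 is the smallest p this test can give before adjustment. Left and right were closer on III, at 31 and 28, and on IV, at 26 and 30 (exact binomial adjusted p = 0.795 for each). Summed over the 4 chromosomes, 105 peaks were left and 113 right.

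Arm peaks were fewer toward the chromosome ends in replicate 1, while the series value lay at the threshold and the replicate 2 value missed it. Of the 218 arm peaks, 94 lay in the outer 50% of their arm (43.1%, exact interval 36.4 to 50.0%, exact binomial p = 0.0493), 9 of 35 in replicate 1 (25.7%, exact binomial p = 0.00599) and 21 of 55 in replicate 2 (38.2%, exact binomial p = 0.105). The series value lost its call without chromosome II, IV or V, or without the strongest locus of V. It kept its call without chromosome III, at 34.6%. With only the outer 25% at each end counted as arms it was 51.7% (exact binomial p = 0.740). In 5 bins of 20% of the arm, counted from the chromosome end, the series list had 46, 32, 29, 45 and 66 peaks. The innermost bin was the densest, at 7.34 per Mb against 3.23 in the middle one.

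**Figure D2:**
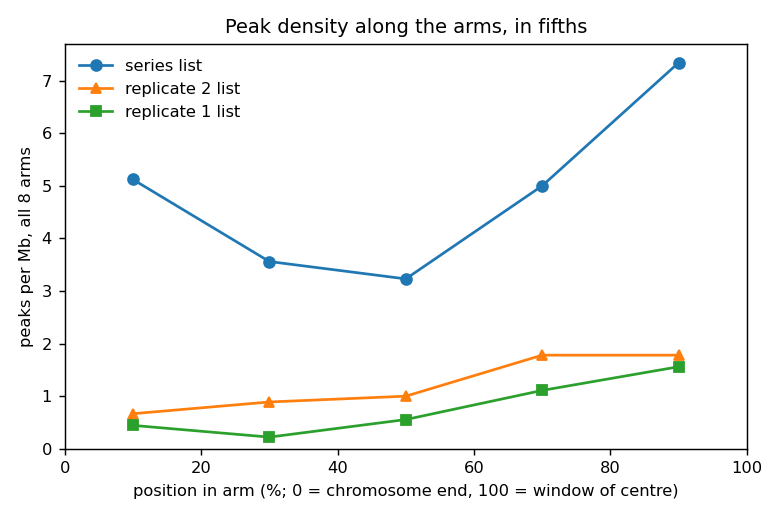
Peaks per Mb over all 8 arms, in bins of 20% of the arm from the chromosome end (0%) to the window of the centre (100%), for each list; lines join the points of a list. The series list fell from 5.12 at the end to 3.23 in the middle bin and rose to 7.34 beside the centre, while the replicate 2 list went from 0.667 at the end to 1.78.

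The outermost 20% of the arms held 46 series peaks (5.12 per Mb, against 4.85 over all arms), 4 peaks of replicate 1 and 6 of replicate 2. A replicate counterpart was found for 8 of those 46 (17.4%), against 55 of 172 in the rest of the arms (32.0%), with an odds ratio of 0.449 (0.170 to 1.06, Fisher's exact p = 0.0665, two-sided). Their median q was 9.05e-05, against 6.93e-05 in the rest. The right arm of III supplied 13 of the 46. Without that arm the density was 4.09 per Mb and the shares were 12.1% and 30.6% (Fisher's exact p = 0.0324). This comparison was chosen after the counts had been seen.

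Individual arms differed in where their peaks lay. On the right arm of III 22 of 28 peaks were in the outer 50% (78.6%, exact interval 59.0 to 91.7%), the one arm that passed (exact binomial adjusted over the 8 arms, p = 0.0298). Its 5 bins from the end inward held 13, 6, 3, 2 and 4 peaks. The left arm of V ran the other way, with 9 of 33 outer peaks (27.3%, exact binomial adjusted p = 0.0541) and 13 in the innermost bin. On the left arm of III 10 peaks lay in the outermost and 13 in the innermost bin, with 8 in the 3 between. The right arm of IV had 1 peak in its outermost bin and 12 in the fourth. The test by arm was also chosen after the counts had been seen.

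**Figure D3:**
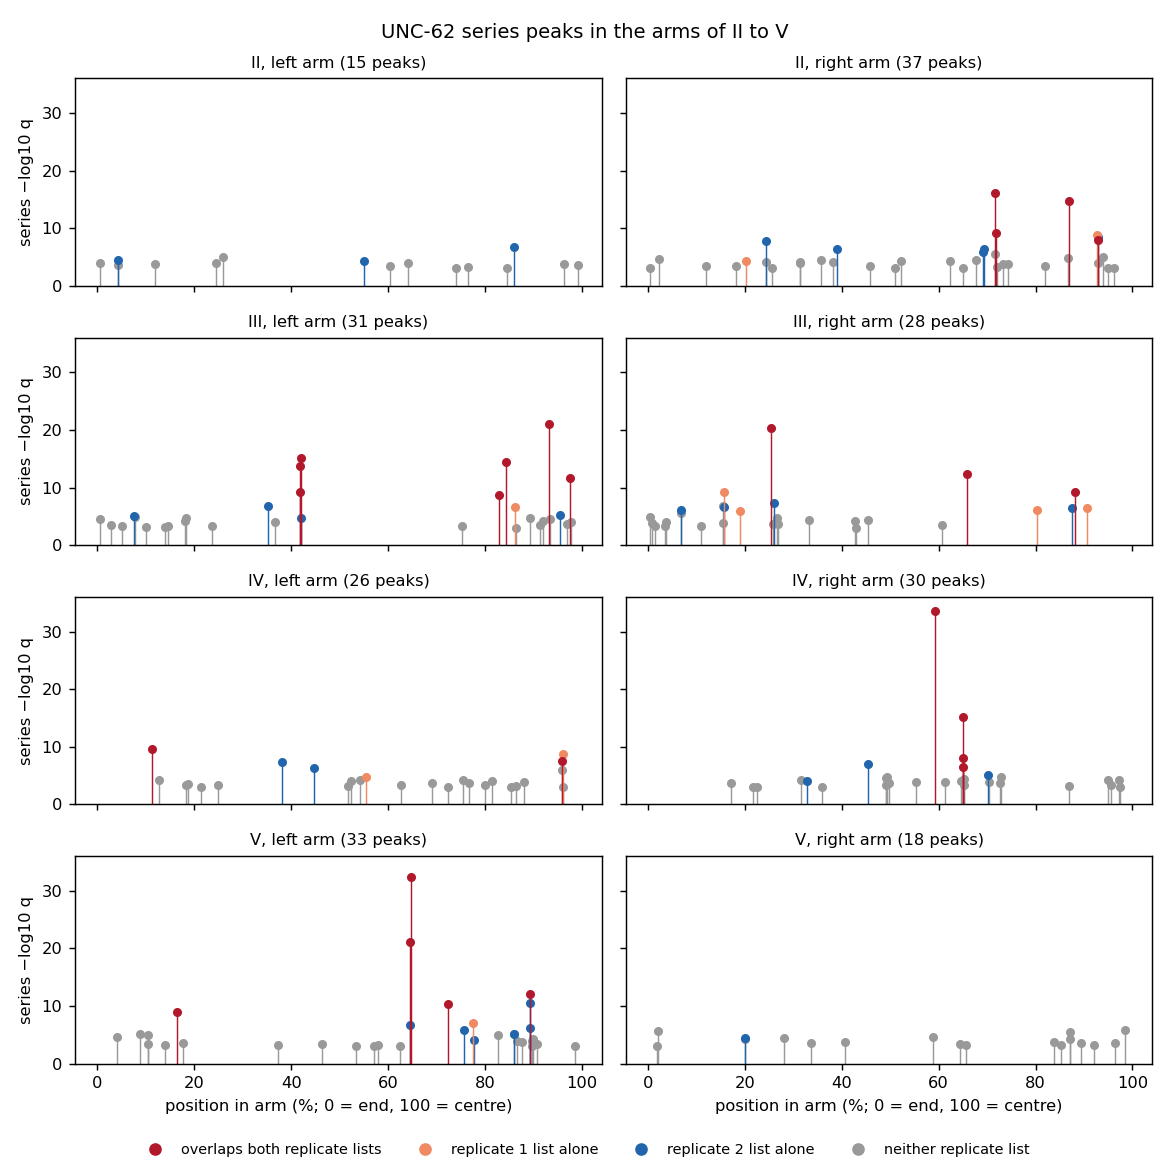
All 218 series peaks in the 8 arms, by position in the arm (percent, from the chromosome end to the window of the centre) and strength (−log10 q of the series list); colours show whether a peak overlaps the list of both replicates, of 1 or of neither. The tallest peaks, at 33.53 on the right of IV and 32.31 on the left of V, overlap both lists, and the right arm of V has no peak with both.

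The share of arm peaks recovered in the replicates was not shown to differ from that of other peaks. Of the 218, 63 overlapped a peak of at least 1 replicate list (28.9%, exact interval 23.0 to 35.4%), where the share over all series peaks was 23.1%. Both lists were overlapped by 25 (11.5%, 7.56 to 16.5%, against 8.33% over all series peaks), replicate 1 alone by 10 and replicate 2 alone by 28. In the centres of II to V the shares were 25.2% with a counterpart and 9.91% with both. Over all 440 peaks of II to V they were 27.0% and 10.7%. Arms and centres both lay above 23.1%, a share that also takes in peaks outside II to V and X. The odds ratio of arms to centres was 1.20 for a counterpart (0.774 to 1.88, Fisher's exact p = 0.393) and 1.18 for both (0.614 to 2.27, Fisher's exact p = 0.645). On X 64 of 184 peaks had a counterpart (34.8%), an odds ratio of arms to X of 0.763 (0.489 to 1.19, Fisher's exact p = 0.236). Each interval covers differences in both directions, so the shares are not shown to be equal.

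Recovery followed strength closely, which the making of the lists fixed in part. No replicate q was above 9.99e-04, and the series q was the lower in every overlapping arm pair. Weak series peaks could therefore hardly have a counterpart. All 26 arm peaks among the 100 strongest of the series list had a counterpart, as did 20 of the 21 ranked 101 to 200. From rank 201 to 400 it was 14 of 45 (31.1%) and beyond that 3 of 126 (2.38%). In the centres the corresponding counts were 21 of 21, 21 of 26, 12 of 49 and 2 of 126. The 63 arm peaks with a counterpart had a median q of 5.52e-08 and a median width of 555 bp, and the 155 without one 1.87e-04 and 285 bp. No arm peak under 199 bp had a counterpart, and 23 arm peaks were narrower than 100 bp.

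**Figure D4:**
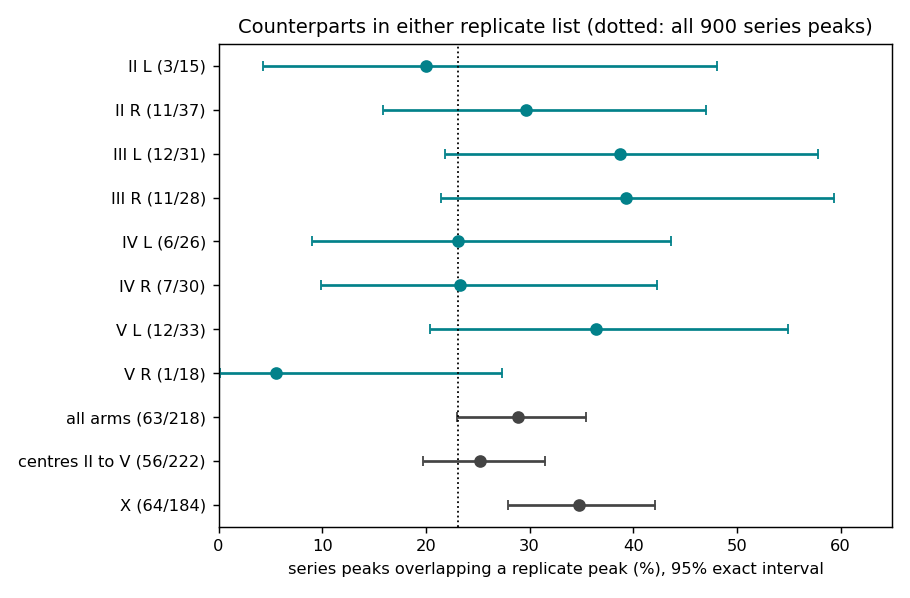
Percent of series peaks that overlap a peak of either replicate list, for each arm (L left, R right), all arms, the centres of II to V and X, with counts in parentheses. Bars are 95% exact intervals. The dotted line is the 23.1% of all series peaks, which include those outside II to V and X. The right arm of V is lowest at 5.56% and the right arm of III highest at 39.3%, and the intervals of all 8 arms overlap.

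By arm, the share with a counterpart was 39.3% on the right and 38.7% on the left of III, 36.4% on the left of V, 29.7% on the right of II, 23.3% and 23.1% on the right and left of IV and 20.0% on the left of II. On the right of V it was 1 of 18 (5.56%, exact interval 0.141 to 27.3%), against 62 of 200 in the other arms (Fisher's exact p = 0.0270, and 0.216 adjusted over the 8 arms). Its peaks were also weak, none ranked better than 217. In the other arms 13 of the 149 peaks from that rank down had a counterpart (8.72%). That cut was set by the best peak of the right of V, and the part of strength was not tested. After adjustment over the 8 arms, no arm differed from the others past the threshold in this share.

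Agreement between the replicate lists was not shown to differ between arms and centres. Of the 35 arm peaks of replicate 1, 25 overlapped a replicate 2 peak (71.4%, exact interval 53.7 to 85.4%), where 66.4% of all its peaks did. The same 25 pairs were 45.5% (32.0 to 59.4%) of the arm peaks of replicate 2, against 43.1% of its whole list. In the centres the shares were 68.8% and 47.8% (odds ratio of arms to centres 1.13, 0.349 to 3.69, Fisher's exact p = 1; and 0.910, 0.386 to 2.15, Fisher's exact p = 0.843). The midpoints of the 25 pairs were a median of 34.5 bp apart, at most 170 bp, and in 15 pairs the narrower peak lay wholly inside the wider. Replicate 2 had the lower q in 18 of the 25 and the wider peak in 19, with median widths of 478 and 384 bp.

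**Figure D5:**
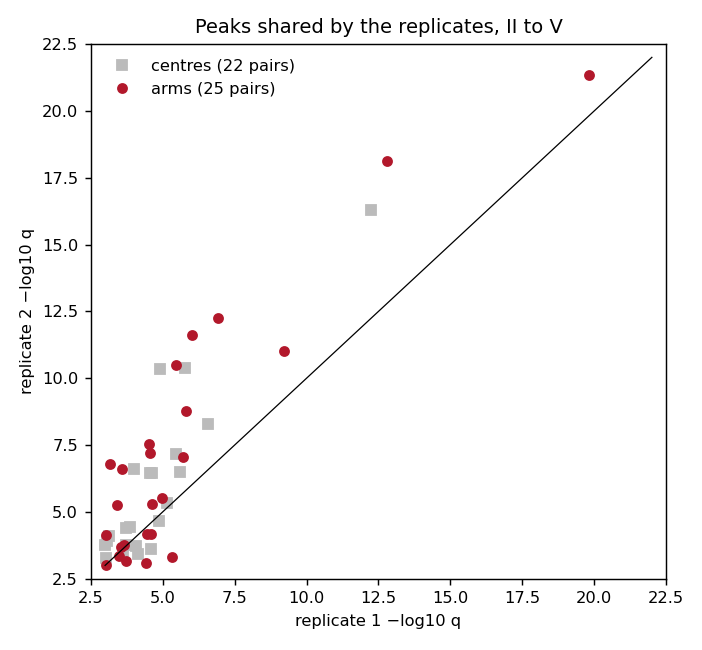
Strength (−log10 q) of each peak shared by the replicates on II to V, replicate 1 on the horizontal and replicate 2 on the vertical axis; red circles are the 25 arm pairs, grey squares the 22 centre pairs, and the line marks equal values. The strongest pairs lie above the line, the highest arm pair at 19.81 and 21.34.

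Strength in the replicates was related over the 25 arm pairs (Pearson r = 0.898 and Spearman rho = 0.747 for −log10 q); the pairs share their libraries, and the values are a description. Leaving out the 2 pairs whose replicate 1 value was farthest from the median gave 0.741 and 0.675. The median difference, replicate 2 minus replicate 1, was 1.34 in −log10 q, with a range from -2.01 to 5.57. Differences above 5 were found for 4 pairs, picked out after their values were seen: the replicate 1 peaks III 12612310 to 12612760 (6.02 in replicate 1 and 11.60 in replicate 2), IV 14032621 to 14034098 (12.80 and 18.14), III 4281954 to 4282544 (6.94 and 12.26) and III 1925023 to 1925609 (5.48 and 10.51). The opposite extreme was II 11619759 to 11620368, at 5.31 in replicate 1 and 3.30 in replicate 2. The 30 arm peaks of replicate 2 without a partner had a median q of 2.50e-04, and its 25 shared peaks 3.06e-06. For the 10 and 25 of replicate 1 these medians were 1.51e-04 and 2.67e-05. The series list gave the lower q in all 35 arm pairs with replicate 1 and all 54 with replicate 2, by a median of 5.15 and 3.60 in −log10 q.

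Arm peaks were not shown to be stronger, weaker, wider or narrower than centre peaks. The series medians of −log10 q were 4.15 in the arms (quartiles 3.42 and 5.71) and 4.02 in the centres (3.42 and 5.59). Above the median of all II to V peaks lay 113 of 218 arm peaks and 107 of 222 centre peaks, an odds ratio of 1.16 (0.782 to 1.71, Fisher's exact p = 0.505). In the replicates the medians were 4.53 against 3.93 and 4.13 against 3.92 (odds ratios 1.93 and 1.32, Fisher's exact p = 0.224 and 0.551). Median width in the series list was 346.5 bp in the arms and 307 bp in the centres (odds ratio of being wider than the median 1.20, 0.811 to 1.77, Fisher's exact p = 0.391). Replicate 1 gave 384 and 347.5 bp and replicate 2 gave 402 and 399 bp (Fisher's exact p = 0.0883 and 0.842). Arm peaks covered 88.9 kb in the series list. Of the 10 strongest series peaks 4 were arm peaks, 1 was a centre peak, 1 lay on X and 4 lay elsewhere. The arm peaks ranked 2 and 7 lay within 10.2 kb on the left arm of V. Of the 200 strongest 47 were arm, 47 centre and 42 X peaks, and 64 lay elsewhere. Over all 900 series peaks, 218 were arm and 222 centre peaks.

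The strongest arm region of the series list lay on the right arm of IV at 14032567 to 14034463, 1897 bp wide, with q = 2.95e-34. Its peak spanned 1478 bp in replicate 1 and 1869 bp in replicate 2, and both replicate peaks began within 100 bp of the series peak. A group of 5 peaks on that arm spanned 15.1 kb, from 13689353 to 13704435. The peaks of that group at 13695603 (q = 6.66e-16), 13699267 (q = 9.67e-09) and 13704011 (q = 3.24e-07) were each in both replicate lists, and those at 13689353 and 13694624 in neither. The strongest peak of the arm without a counterpart was at 13240416 to 13240785, ranked 305.

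On the left arm of V the series list had 3 peaks near each other. The peak at 4503531 to 4509115 (5585 bp, q = 4.85e-33) was wider than the replicate peaks inside it, which measured 1886 and 2059 bp. The second, at 4498926 to 4500021 (q = 7.72e-22), had q = 6.25e-10 in replicate 1 and 9.45e-12 in replicate 2. The other, at 4491193 to 4491978 (q = 2.28e-07), was found in replicate 2 with q = 1.23e-05 and not in replicate 1. A RefSeq gene table of another assembly, WBcel235, places unc-62 on V and unc-119 on III, and both genes are carried by the transgene in extra copies. Whether an arm peak lies at such a locus was not tested, since coordinates of the 2 assemblies were not compared. Results without these 3 peaks are given with the alternatives.

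Further along the left arm of V, 3 peaks lay within 5.56 kb at 6224350 to 6229909. All were in replicate 2, with series q of 3.18e-11, 6.23e-07 and 9.29e-13, and the last, at 6229265 to 6229909, was also in replicate 1 (q = 2.49e-04, and 2.53e-07 in replicate 2). The strongest peak of the arm that neither replicate held was at 618967 to 619408, ranked 272. On the right arm of V the 3 strongest peaks were at 14055054 to 14055313 (q = 1.23e-06), 20773591 to 20773996 (q = 1.87e-06) and 14848459 to 14849129 (q = 3.41e-06), none with a counterpart. The 1 peak of that arm with a counterpart, from 19522586 to 19523075, was weak in both lists that held it (q = 3.32e-05 and, in replicate 2, 8.56e-04). It is named outside the rule for named regions.

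Chromosome III had the highest share of recovered arm peaks. On its left arm the strongest peak was at 4281889 to 4282553 (q = 1.05e-21), with q = 1.15e-07 in replicate 1 and 5.45e-13 in replicate 2. A second strong peak, at 3867361 to 3867704 (q = 3.83e-15), was narrow in every list, at 344, 300 and 294 bp. A group of 4 peaks filled 5.80 kb at 1920996 to 1926794, of which 2956 bp was peak. Of these, 3 were in both replicates, led by 1924776 to 1925689 (q = 6.10e-16), and the weakest, at 1926150 to 1926794 (q = 1.57e-05), was in replicate 2 only. The strongest peak of the left arm without a counterpart was at 354594 to 355287, ranked 304.

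On the right arm of III the leading peaks were at 12612310 to 12612885 (q = 4.64e-21), 10758994 to 10759412 (q = 4.03e-13) and 9731297 to 9731667 (q = 4.87e-10), all in both lists. The replicate peaks at the last of these overlapped in part, from 9731469 to 9731667 in replicate 1 and from 9731327 to 9731527 in replicate 2. Near the end of this arm a group of 4 peaks spanned 9.81 kb at 13060951 to 13070757. The first peak was found in replicate 2 alone, the second in replicate 1 alone and the other two in neither. One of those, at 13067939 to 13068663 (q = 1.61e-07, ranked 151), was the strongest arm peak without a counterpart on any of the 4 chromosomes.

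Chromosome II had its strongest arm peaks on the right, led by a peak of 1180 bp at 11634901 to 11636080 (q = 8.14e-17). Replicate 1 had 1 peak in it, at 11635675 to 11636041 (q = 3.20e-04). Replicate 2 had 2, one at the same place (11635651 to 11636067, q = 4.32e-04) and a stronger one at the left edge, 11634901 to 11635279 (q = 2.99e-06). The next were 10850902 to 10851469 (q = 1.68e-15; 1.11e-05 and 3.06e-06 in the replicates) and 11619754 to 11620408 (q = 7.61e-10; 4.90e-06 and 4.97e-04). A group of 3 peaks lay at 10548680 to 10555836, with 2 of them recovered. The strongest peak of the arm without a counterpart, at 11634084 to 11634455 (ranked 242), adjoined its leading peak.

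The left arm of II held no strong peak. Its strongest were at 4376471 to 4376986 (q = 2.05e-07), 1320482 to 1320777 (q = 9.43e-06) and 216655 to 216906 (q = 3.30e-05). The first and the last of these were in replicate 2 (q = 8.85e-05 and 8.87e-04), none was in replicate 1, and the second had no counterpart. The left arm of IV had a peak far out, at 654777 to 655084 (q = 2.60e-10), that both replicates called at nearly the same bounds (q = 3.63e-05 and 6.87e-05). Beside the window of IV lay 5607335 to 5607889 (q = 1.87e-09), found in replicate 1 alone (q = 5.49e-06), and 5591148 to 5591525 (q = 2.43e-08), found in both (q = 1.97e-04 and 6.55e-04). Its strongest peak without a counterpart was at 5593813 to 5594227, ranked 213. The 1 arm peak of a replicate that was absent from the series list was also on this arm, at 2708536 to 2708921 in replicate 2 (q = 6.23e-04).

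Some peaks of the arms had a close neighbour. With gaps of at most 5 kb, 55 of the 218 (25.2%, exact interval 19.6 to 31.5%) had another peak beside them, in 23 groups, of which 18 were pairs and 5 held at least 3 peaks. In the centres it was 68 of 222 (30.6%, odds ratio of arms to centres 0.765, 0.492 to 1.19, Fisher's exact p = 0.243), with 4.85 peaks per Mb in the arms and 9.86 in the centres. On X 34 of 184 peaks had such a neighbour (18.5%), so the arm share lay between the other two. The difference from X was not tested. Arms and X were closer at gaps of 2 kb (11.9% and 11.4%) and of 10 kb (30.7% and 29.3%). Grouped arm peaks were recovered more often than single ones, at 26 of 55 (47.3%) and 37 of 163 (22.7%, odds ratio 3.04, 1.52 to 6.09, Fisher's exact p = 9.42e-04). A like difference over all peaks of the series was known before this comparison, and its values are not given here. Over all series peaks, grouped or single and including those outside II to V and X, 23.1% had a counterpart. The median q of grouped arm peaks was 6.59e-06, against 1.28e-04 for single arm peaks. Among the 200 strongest series peaks the shares were 21 of 22 and 25 of 25, and among the weaker ones 5 of 33 (15.2%) and 12 of 138 (8.70%). The part of strength in the difference was not tested further.

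At the window bounds, the nearest arm peak lay between 40.6 and 429 kb from its bound, with q from 4.00e-07 to 9.57e-04, and 1 of these 8 had a counterpart. The nearest centre peaks lay 92.7 to 758 kb from the bounds, with q from 2.18e-08 to 9.13e-04, and 1 of 8 had a counterpart.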

How the data were processed

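The authors deposited 3 peak lists, 1 for each ChIP sample and 1 for the whole series, each peak with a start, an end and a value treated here as a q-value. Per the file headers positions are on WormBase WS220, and the source field names PeakSeq, a caller that sets ChIP against control reads. For the aligner, the depth, the thresholds and the making of the series list, nothing is stated by a label or header. No deposited q-value was above 9.99e-04, so weaker sites are missing, and no list of input peaks was used. That they are q-values was read from the numbers and the peak ranks.

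Counts and tests were made in Python 3.11.15 with scipy 1.17.1 and numpy 2.4.6, and figures with matplotlib 3.10.9. Chromosome length was the sum of the 2 window bounds. A counterpart overlapped by at least 1 bp. Counts were tested with two-sided exact binomial and Fisher's exact tests, at a threshold of 0.05, with conditional odds ratios, 95% Clopper-Pearson or exact conditional intervals and Benjamini-Hochberg adjustment where stated. They count peaks as independent. The simulated lists on which they were tried also drew each peak independently, so those runs could not check this. Regions and tests were chosen with earlier results of these data known. Named regions were the 3 strongest series peaks of each arm, the strongest without a counterpart, replicate arm peaks absent from the series list, peaks nearest the window bounds and groups of at least 3 peaks. Alternatives were other windows, stronger peaks, left-out chromosomes, other overlaps, gaps and lengths, single lists and the strongest V locus left out.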

Additional observations from a re-analysis of the deposited data

How the results depend on the processing

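Under the alternatives 121 values were computed again, and 92 had the same direction and the same test outcome, passed or not. The arm share of peaks kept its direction and passed in all 10 of its alternatives. The share of grouped peaks kept its direction in all 9 of its own, but passed in none of them, nor as reported. The outer share of arm peaks lost its call among the stronger peaks (43.4%), without the strongest V locus (43.7%), without chromosome II, IV or V (44.6%, 46.3% and 46.7%) and in the replicate 2 list (38.2%), and turned to 51.7% with the outer 25% at each end as arms. Its call held in the replicate 1 list (25.7%) and without chromosome III (34.6%) or its right arm (37.9%, an alternative that was not planned). Odds ratios of arms to centres that had not passed a test changed side, still without a call: strength to 0.897 among the stronger peaks and 0.931 without V, width to 0.940 and counterparts to 0.989 with the outer 25%, and replicate overlap to 0.910 from replicate 2 and 0.992 at an overlap of 50%. Counterparts from a single replicate gave odds ratios of 1.14 to 1.23. The correlation of arm pairs was 0.741 without 2 pairs. In the replicate 1 list 0 chromosomes passed the test of left against right; 2 had an unadjusted p under 0.05. The arms that passed numbered 3 among the stronger peaks and 2 without the V locus, the right arm of V among them each time. The ratio for the right arm of IV was 0.881 and 0.982 in the replicates and 0.887 among the stronger peaks, and that for the left arm of V 1.11, 1.29 and 1.03. The cause was not tested. No paired analysis was possible because only ChIP samples have lists, so nothing pairs across groups. Depth is unknown, and a site absent from 1 replicate may have missed the q threshold by little.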

Other observations

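Some arms had long stretches with no peak in the series list. The longest between neighbouring arm peaks was 1.53 Mb on the left arm of III, from 1926794, the end of its group of 4 peaks, to 3456299. Gaps of 1.48 Mb on the left of II, 1.37 Mb on the left of V and 1.28 Mb on the right of V followed, and the other arms had none above 0.815 Mb. At the chromosome ends, the outermost peak of IV lay 0.998 Mb from its right end and 0.655 Mb from its left end, while those of II and III lay within 0.0258 Mb of both ends. Lengths are known here to 0.01 Mb.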
